A study of Mus musculus with 8 samples.

Results

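The Dlx genes of the mouse were examined in lower molars with and without epithelial Jagged1. Members were the rows of the 8 count files whose Ensembl identifier carries one of 8 symbols: the coding genes Dlx1, Dlx2, Dlx3, Dlx4, Dlx5 and Dlx6 and the antisense transcripts Dlx1as and Dlx6os1. All 8 symbols passed the count filter and were among the 17129 genes tested, out of 43629 identifiers in the files. The symbol Dlx6os1 belongs to a second entry as well, annotated as a miscellaneous RNA (ENSMUSG00000098326), which had at most 12 counts in any embryo and was not tested. Lower molars of 4 K14Cre;Jagged1fl/fl embryos (K14J26, K14J28, K14J29 and K14J30, called mutant here) and of 4 Jagged1fl/fl control embryos (J3, J5, J6 and J7) were sequenced at E18.5, left and right molars of each embryo being pooled into 1 library. By the sample labels, both groups carry the floxed Jagged1 alleles and only the mutants carry Cre, while the study's methods call the controls wild-type littermates. Cre is driven by the promoter of keratin 14, a gene of epithelial cells, so that the dental mesenchyme is expected to keep Jagged1. The embryos of a group are separate animals.

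Dlx genes encode homeodomain transcription factors related to Distal-less of the fly. In mammals, they lie as convergent pairs, each pair transcribed towards a shared intergenic stretch that holds enhancers used by both genes. Dlx1 and Dlx2 act in the proximal part of the pharyngeal arches and mice without both fail to form upper molars, Dlx5 and Dlx6 give the lower jaw its identity, and mutations of human DLX3 disturb enamel, dentin, hair and bone. Antisense transcripts arise from the Dlx1/Dlx2 and Dlx5/Dlx6 loci, and the product of the latter, also known as Evf2, has been studied as a regulator of Dlx5 and Dlx6 in the forebrain.

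The count tables sum to 17327224 to 29792467 reads. Values are given as CPM, the count of a gene relative to the total of its library after TMM scaling. The deleted gene, Jag1, had 101 ± 4.12 CPM (SD, n = 4) in control and 44.0 ± 10.03 CPM (SD, n = 4) in mutant molars (log2 fold change -1.19, adjusted p = 0.00517, edgeR), with no overlap. The markers of both tooth layers were present, with 851 and 1649 CPM of the epithelial keratin gene Krt14 and 845 and 863 CPM of the mesenchymal gene Vim in control and mutant molars on average. Skeletal muscle transcripts stood apart in 2 control embryos: Acta1 reached 131 CPM in J6 and 52.7 CPM in J7, while none of the 6 remaining embryos exceeded 5.65 CPM. The mean log2(CPM) of 5 enamel genes ran from 4.73 to 6.87 in the controls and from 6.94 (K14J28) to 11.8 (K14J26) in the mutants, and Xist was high in K14J28 and K14J29 only. Whether the Dlx values below depend on these features was addressed only by the covariate and leave-one-out values given beside them.

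Of the 8 members, 5 were lower in mutant molars with an adjusted p under 0.05 and none was higher (quasi-likelihood test of edgeR, with the Benjamini-Hochberg method over all tested genes). In the same test, 16.1% of all tested genes were called in either direction, 9.52% higher and 6.61% lower. These 5 were Dlx1, Dlx2 and Dlx1as of 1 locus and Dlx5 and Dlx6os1 of another, while Dlx3, Dlx4 and Dlx6 were not called. For the same 5 members, each mutant value was under each control value. Among all tested genes, 24.2% had groups without overlap, 11.6% with the mutants below and 12.6% with the mutants above. A log2 fold change of 0.5 or more in size together with a p of 0.05 or less before adjustment was reached by all of them but Dlx5, 4 members in all, against 14.2% of the tested genes. The median log2 fold change (mutant over control) was -0.42 over the 8 members and 0.0058 over all tested genes. In whole molars, fewer cells of a type and less RNA per cell cannot be told apart.

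**Figure D1:**
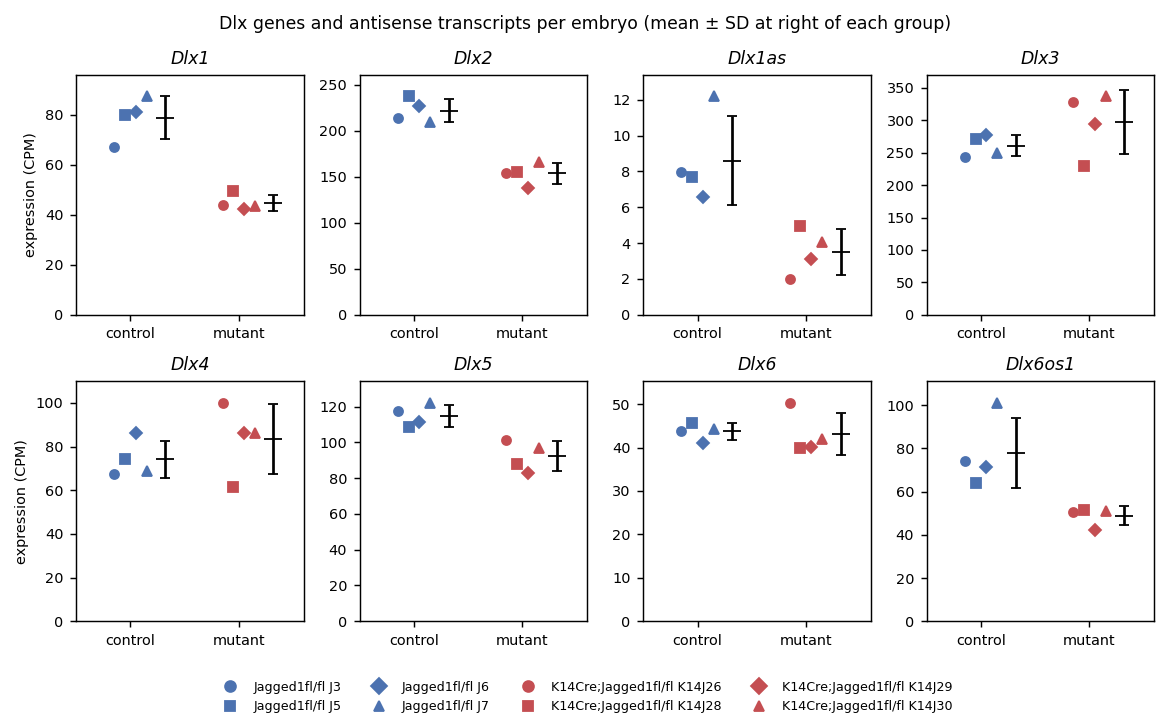
Expression in CPM (y axis, from 0) of each member in the 4 control (blue) and 4 mutant (red) embryos, with the group mean ± SD in black. The 2 groups are separate for Dlx1, Dlx2, Dlx1as, Dlx5 and Dlx6os1 and overlap for Dlx3, Dlx4 and Dlx6.

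Levels of different genes were compared per kilobase of exon. In control molars, Dlx3 was highest, with 100.03 ± 6.25 CPM per kb (SD, n = 4), followed by Dlx2 with 77.8 ± 4.48 and Dlx5 with 50.7 ± 2.72 CPM per kb. A second tier held Dlx4 with 22.7 ± 2.63, Dlx6 with 18.4 ± 0.836, Dlx6os1 with 15.0 ± 3.11 and Dlx1 with 14.6 ± 1.59 CPM per kb, and Dlx1as was lowest with 5.28 ± 1.51. The control ranges of neighbours in this order overlapped for Dlx6 with Dlx6os1 and for Dlx6os1 with Dlx1, and not for the others. Each pair thus had a stronger partner, Dlx2, Dlx3 and Dlx5. In mutant molars, Dlx3 had 114 ± 18.8, Dlx2 53.8 ± 4.08, Dlx5 40.8 ± 3.75, Dlx4 25.5 ± 4.93, Dlx6 18.1 ± 2.05, Dlx6os1 9.42 ± 0.853, Dlx1 8.29 ± 0.598 and Dlx1as 2.16 ± 0.784 CPM per kb (SD, n = 4), and the order of the 8 means was as in the controls.

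**Figure D2:**
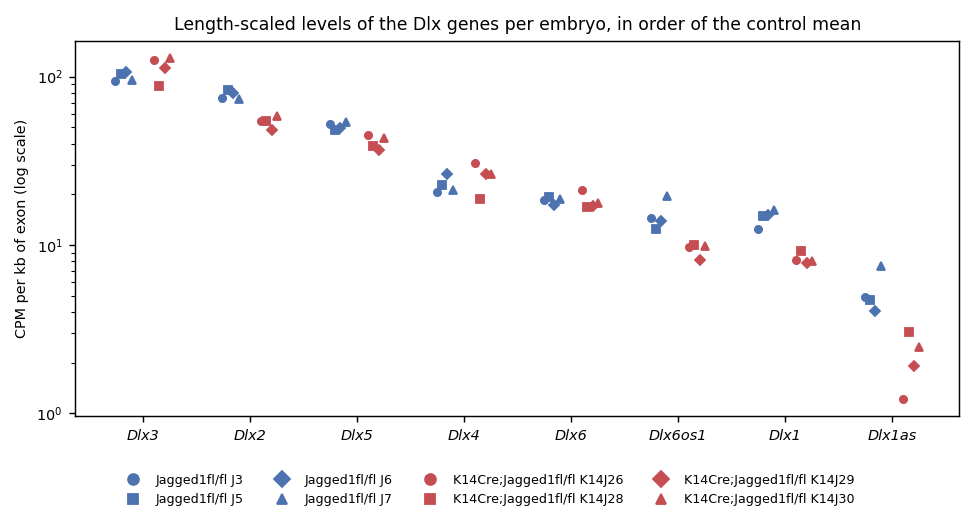
CPM per kb of exon (y axis, log scale) of each member in the single embryos, ordered by the control mean, with controls in blue and mutants in red. Dlx3, Dlx2 and Dlx5 lie above the others in both groups.

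The Dlx1/Dlx2 pair lies on chromosome 2 of GRCm38, with Dlx1 (ENSMUSG00000041911) on the plus strand from 71528113 to 71533981 and Dlx2 (ENSMUSG00000023391) on the minus strand from 71543408 to 71546754, 9426 bases apart. Dlx1 had 66.9, 79.9, 81.2 and 87.3 CPM in the control embryos J3, J5, J6 and J7, and 43.7, 49.5, 42.4 and 43.4 CPM in mutants K14J26, K14J28, K14J29 and K14J30. All 4 mutants were below the lowest control, and they lay closer together than the controls, with a coefficient of variation of 7.21% against 10.9%. Its log2 fold change was -0.82 with a standard error of 0.09 and an adjusted p of 0.00485, a fall to 0.568 of the control level, and 22 of the tested genes had a smaller p. Dlx2 had 214, 238, 227 and 210 CPM in the controls and 155, 156, 138 and 166 CPM in the mutants, in the same order of embryos. These groups were separate as well, by a gap wider than the range within either. The log2 fold change of Dlx2 was -0.53 with a standard error of 0.07 and an adjusted p of 0.00717, a fall to 0.692 of the control level. Both genes kept an adjusted p under 0.05 in each of the 8 fits that left out 1 embryo, with log2 fold changes from -0.89 to -0.77 for Dlx1 and from -0.57 to -0.48 for Dlx2. Dlx1 kept its call with each of the 3 covariates, while Dlx2 kept it with Xist and the enamel score and lost it with the skeletal muscle score (-0.53, adjusted p = 0.0505, edgeR). Without J6 and J7 together, which was tried after seeing the data, the changes were -0.71 and -0.55 with an adjusted p of 0.115 for each, in a fit of 2 against 4 embryos that called 7 genes in all.

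Per embryo, the count ratio of Dlx1 to Dlx2 does not depend on library size or scaling. Dlx1 had 0.356 ± 0.0444 counts (SD, n = 4) for each count of Dlx2 in control and 0.292 ± 0.0255 in mutant molars. The log2 ratio was lower in the mutants by 0.28 on average, and the highest mutant, K14J28 at -1.65, lay above the lowest control, J3 at -1.68 (two-sided exact permutation p = 0.0571, 0.0952 after Benjamini-Hochberg adjustment over the 5 ratios tested). The larger fall of Dlx1 was thus not separated from that of Dlx2 by this test. The smallest p that 4 against 4 allow is 0.0286 (two-sided exact permutation). Dlx5/Dlx6 and Dlx6/Dlx6os1, given below, were at this p and stood at 0.0714 after adjustment. An adjusted p under 0.05 was therefore hard to reach for any single ratio, whatever its size.

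The promoter of Dlx2 is shown because this gene is the stronger of the pair and its change held in every fit that left out 1 embryo. The 250 bases before the start that RefSeq gives for Dlx2 (GRCm38.p6, chr2:71546755-71547004, minus strand) hold 2 copies of CACGTG, the E-box bound by basic helix-loop-helix factors, which are set in capitals:

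Dlx2: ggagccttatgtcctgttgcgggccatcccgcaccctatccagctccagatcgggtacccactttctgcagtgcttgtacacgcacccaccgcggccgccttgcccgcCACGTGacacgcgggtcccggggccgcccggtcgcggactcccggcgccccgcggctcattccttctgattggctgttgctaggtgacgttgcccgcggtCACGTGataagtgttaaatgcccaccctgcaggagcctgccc

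The first base of these copies lies 142 and 42 bases before the start. CACGTG reads the same on both strands. It is found in 6.02% of 32851 RefSeq windows of this length, and 0.429% hold at least 2 copies. These windows were not matched to that of Dlx2 for base composition. None of TGGGAA (the core of the RBPJ site of the Notch pathway, in 21.6% of windows on either strand), CTTTGA (the core of the TCF/LEF site, 13.8%) or TAATTA (a homeodomain core, 4.84%) was found in this window. The RefSeq window of Dlx1 (chr2:71529195-71529444, plus strand) held none of the 4 motifs. It lies inside the span given for Dlx1 above, not before it. The table of promoter windows had no entry for Dlx1as, Dlx3, Dlx4, Dlx5 and Dlx6. These matches are letters in a sequence, and binding was not measured.

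Dlx1as (ENSMUSG00000084946) runs on the minus strand of chromosome 2 from 71516454 to 71537891, across the whole of Dlx1. It had 7.97, 7.67, 6.59 and 12.2 CPM in the controls J3, J5, J6 and J7, and 1.97, 4.96, 3.12 and 4.04 CPM in mutants K14J26, K14J28, K14J29 and K14J30. The mutants were all below the controls, and J7 was the highest and K14J26 the lowest embryo. Its log2 fold change of -1.28 with a standard error of 0.29 and an adjusted p of 0.0222 had the largest size among the 8 members. The library kit does not mark the strand, and 335 of the 1630 exon bases of Dlx1as (20.6%) are also exon of Dlx1, near the 3′ end of that gene. At the mean read density of Dlx1, these 335 bases would hold 4.16 to 5.42 CPM in the controls and 2.63 to 3.07 CPM in the mutants, against 6.59 to 12.2 and 1.97 to 4.96 CPM counted on Dlx1as. How a read on the shared bases was assigned is not given in the sources used here, so the part of the Dlx1as values that comes from Dlx1 RNA cannot be told apart. The count ratio of Dlx1 to Dlx1as was 9.57 ± 2.27 in control and 14.1 ± 5.59 in mutant molars (SD, n = 4), with overlap of the groups (two-sided exact permutation p = 0.143, adjusted 0.179). The difference in the log2 ratio was 0.51, and 0.27 without K14J26. The call of Dlx1as was lost without J3, J5, J7 or K14J29 (adjusted p = 0.0569, 0.0532, 0.0696 and 0.0718), and with a covariate for the enamel gene score the log2 fold change was -0.37 (adjusted p = 0.407, edgeR). With the skeletal muscle score it was -1.14 (0.0971).

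The Dlx5/Dlx6 pair lies on chromosome 6, with Dlx6 (ENSMUSG00000029754) on the plus strand from 6863334 to 6868568 and Dlx5 (ENSMUSG00000029755) on the minus strand from 6877805 to 6882085, 9236 bases apart. Dlx5 had 118, 108, 111 and 122 CPM in the controls J3, J5, J6 and J7, and 101, 88.0, 82.6 and 97.0 CPM in mutants K14J26, K14J28, K14J29 and K14J30. Every mutant was below every control, with K14J26 closest to them. The log2 fold change of Dlx5 was -0.32 with a standard error of 0.08 and an adjusted p of 0.0283, a fall to 0.803 of the control level. Dlx6 had 43.9, 45.7, 41.0 and 44.3 CPM in the controls and 50.3, 40.0, 40.2 and 41.9 CPM in the mutants. K14J26 was the highest and K14J28 the lowest of all embryos, and the groups overlapped. The log2 fold change of Dlx6 was -0.022, with a 95% interval from -0.21 to 0.17 (adjusted p = 0.882). The call of Dlx5 was lost without J3, J5, J6, J7 or K14J29 (adjusted p = 0.0785, 0.0533, 0.0552, 0.0815 and 0.0798), with log2 fold changes from -0.36 to -0.27 over all 8 fits. With the level of Xist, the enamel score or the skeletal muscle score as a covariate it was -0.20, -0.35 and -0.31, not called in any (adjusted p = 0.110, 0.131 and 0.112, edgeR).

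Within an embryo, Dlx5 had 2.63 ± 0.177 counts (SD, n = 4) for each count of Dlx6 in control and 2.15 ± 0.138 in mutant molars. The log2 ratio ran from 1.24 (J5) to 1.46 (J7) in the controls and from 1.01 (K14J26) to 1.21 (K14J30) in the mutants, without overlap. The mean was lower by 0.29 in the mutants (two-sided exact permutation p = 0.0286, the smallest p that 4 against 4 allow, 0.0714 after adjustment over the 5 ratios).

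Dlx6os1 (ENSMUSG00000090063) runs on the minus strand of chromosome 6 from 6820189 to 6871592 and spans Dlx6, but shares no exon base with it. It had 74.3, 64.2, 71.4 and 101 CPM in the controls J3, J5, J6 and J7, and 50.5, 51.5, 42.1 and 50.8 CPM in mutants K14J26, K14J28, K14J29 and K14J30. The mutants were below all controls, J7 was high among the controls and K14J29 was low among the mutants. Its log2 fold change was -0.67 with a standard error of 0.14 and an adjusted p of 0.0175, a fall to 0.627 of the control level. The call was lost without J3 (adjusted p = 0.0502) or K14J29 (0.0596), and with Xist, enamel or skeletal muscle level as a covariate (0.0549, 0.193 and 0.0891, edgeR). With these covariates the log2 fold changes were -0.63, -0.49 and -0.56. Without J7, which had the second highest skeletal muscle level, the change was -0.53 (adjusted p = 0.0375).

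Dlx6 had 0.579 ± 0.112 counts for each count of Dlx6os1 in control and 0.888 ± 0.104 in mutant molars (SD, n = 4). The log2 ratio ran from -1.19 (J7) to -0.49 (J5) in the controls and from -0.37 (K14J28) to -0.0069 (K14J26) in the mutants. All mutants lay above all controls, by 0.63 on average, the largest of the 5 ratio differences (two-sided exact permutation p = 0.0286, adjusted 0.0714). Dlx6 and Dlx6os1 share no exon base, but the kit does not mark the strand and Dlx6os1 spans Dlx6. Whether reads of either gene were counted on the other was not tested. The small entry Dlx6os2, on the minus strand inside Dlx6, had 0.561 and 0.461 CPM on average in control and mutant molars.

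RefSeq gives 2 starts for Dlx6os1 (GRCm38.p6), and the 250 bases before each are shown because this transcript had the largest ratio change to its partner. The first start lies between Dlx6 and Dlx5 and the second beyond the 5′ end of Dlx6. Both windows lie inside the span given for Dlx6os1 above, not before it. TAATTA, the core that many homeodomain proteins bind, is in capitals. The first line is chr6:6869534-6869783 and the second chr6:6861684-6861933, both on the minus strand:

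Dlx6os1 start 1: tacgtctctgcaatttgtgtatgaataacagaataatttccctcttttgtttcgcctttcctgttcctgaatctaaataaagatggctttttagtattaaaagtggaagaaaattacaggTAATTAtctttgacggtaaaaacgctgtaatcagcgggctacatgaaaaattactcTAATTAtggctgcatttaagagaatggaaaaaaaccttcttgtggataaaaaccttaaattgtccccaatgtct

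Dlx6os1 start 2: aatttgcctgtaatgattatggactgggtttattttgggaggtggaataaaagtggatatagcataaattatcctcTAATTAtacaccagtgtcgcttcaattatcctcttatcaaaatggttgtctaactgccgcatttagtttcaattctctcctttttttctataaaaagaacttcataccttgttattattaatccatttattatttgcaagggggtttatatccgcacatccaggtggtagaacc

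The first window holds TAATTA at 130 and 74 bases before the start and the second at 174 bases. One copy or more is found in 4.84% of all windows and at least 2 copies in 0.444%. The windows behind these shares were not matched for base composition. CTTTGA is present once in the first window, on the strand shown, at 123 bases, and does not overlap TAATTA. Neither CACGTG nor TGGGAA was found in these windows.

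**Figure D3:**
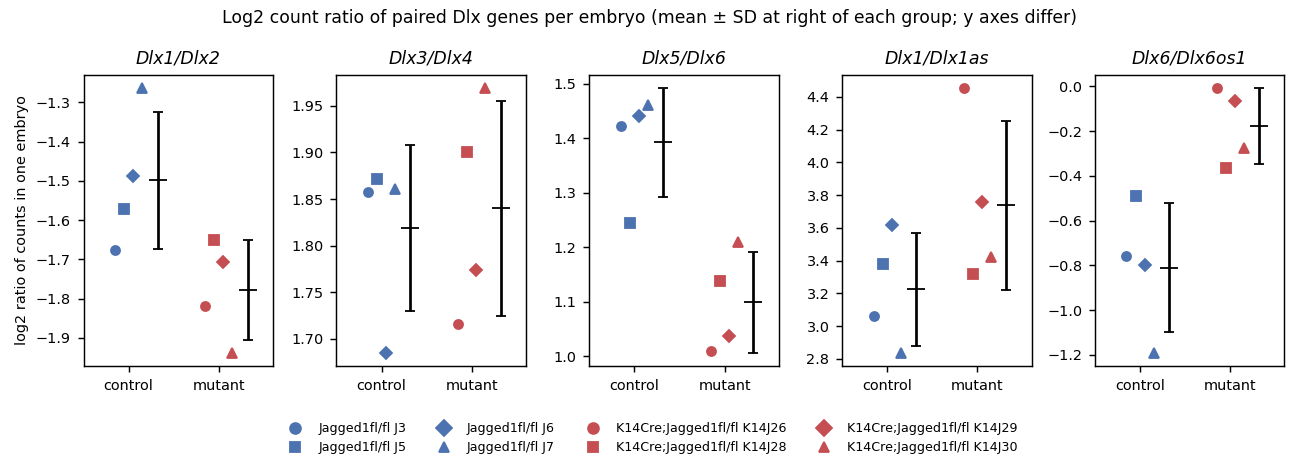
Log2 ratio of the counts of 2 genes within each embryo (y axis, scaled per panel) for the 3 convergent pairs and the 2 sense and antisense pairs, with controls in blue, mutants in red and mean ± SD in black. Controls and mutants are separate for Dlx5/Dlx6 and Dlx6/Dlx6os1, where Dlx6 was higher relative to both partners in the mutants.

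The Dlx3/Dlx4 pair lies on chromosome 11, with Dlx3 (ENSMUSG00000001510) on the plus strand from 95120119 to 95125296 and Dlx4 (ENSMUSG00000020871) on the minus strand from 95140447 to 95146263, 15150 bases apart. Dlx3 had 244, 272, 277 and 250.1 CPM in the controls J3, J5, J6 and J7, and 329, 229, 295 and 337 CPM in mutants K14J26, K14J28, K14J29 and K14J30. Mutant K14J28 was the lowest of all 8 embryos while the other mutants were above every control, so the groups overlapped. The log2 fold change was 0.19, with a 95% interval from -0.07 to 0.45 (adjusted p = 0.272). Without K14J28 it was 0.29 with an adjusted p of 0.0245 (edgeR), and with a covariate for the enamel gene score it was -0.085 (adjusted p = 0.775). With Xist as a covariate it was 0.38 (adjusted p = 0.0514), and with scaling by library size alone 0.082 (0.627).

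Dlx4 had 67.3, 74.3, 86.2 and 68.8 CPM in the controls and 100.04, 61.3, 86.2 and 86.0 CPM in the mutants, in the same order. K14J28 was again lowest and K14J26 highest, and J6 lay among the mutants. Its log2 fold change was 0.17, with a 95% interval from -0.15 to 0.49 (adjusted p = 0.423). With a covariate for the enamel gene score it was -0.30 (adjusted p = 0.186), with Xist 0.36 (0.125), and with scaling by library size alone 0.054 (0.773). Leaving out K14J26 gave 0.071 and leaving out K14J28 gave 0.29, neither called (adjusted p = 0.733 and 0.0644, edgeR). K14J28 was also the mutant with the lowest enamel gene score and K14J26 the one with the highest. The 4 mutants had the same order by that score as by Dlx4, and another order by Dlx3. For Dlx4, K14J29 and K14J30 were nearly equal (86.23 and 86.03 CPM). The match rests on TMM scaling, and by library size alone the order of Dlx4 was another. Dlx3 had 3.53 ± 0.212 counts for each count of Dlx4 in control and 3.59 ± 0.288 in mutant molars (SD, n = 4), a difference in the log2 ratio of 0.021 (two-sided exact permutation p = 0.8). The third transcript of the locus, the antisense gene Dlx4os, had 35.4 ± 2.83 and 41.0 ± 8.31 CPM and a log2 fold change of 0.21 (adjusted p = 0.325), with K14J28 lowest at 29.1 CPM.

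How alike the members were over the 8 embryos was described by the root mean square difference of log2(CPM) after centring each gene on its mean, against 14734 other genes with at least 1 CPM. Much of this measure is the difference between the groups, and genes that vary little have many near neighbours. Dlx4 was rank 30 among the genes most like Dlx3 (difference 0.0899), and Dlx3 rank 28 for Dlx4. For Dlx1, Dlx2 was rank 102 (0.192) and Dlx6os1, on another chromosome, rank 89 (0.188). Seen from Dlx2, Dlx5 was rank 299 (0.155) and Dlx1 rank 1052. For Dlx5, Dlx6 was rank 2159, and for Dlx6, Dlx5 was rank 4593 (0.169). The 2 genes most like each coding member were Mab21l1 and Gm26648 for Dlx1, Pnck and Insyn1 for Dlx2, Alpl and Rusc1 for Dlx3, Ckap4 and Rusc1 for Dlx4, Rnf187 and Lzts2 for Dlx5, and Mapk3 and Fbxo31 for Dlx6. The differences lay between 0.0323 for Mapk3 and 0.0980 for Gm26648. Alpl encodes the alkaline phosphatase of mineralizing tissue, and its difference from Dlx3 was 0.0531.

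Genes that flank the pairs were measured to see whether they changed along with the members. Within 200 kb, or as the nearest tested coding gene on a side, 19 tested genes that are not members lay around the 3 pairs, and 1 was higher and 3 were lower with an adjusted p under 0.05, where 9.52% of all tested genes were higher and 6.61% lower. At the Dlx1/Dlx2 locus, Metap1d, whose 3′ end overlaps Dlx1as, changed by 0.19 on the log2 scale (adjusted p = 0.281), Hat1, a histone acetyltransferase gene 74.8 kb away, by -0.16 (adjusted p = 0.495; -0.018 without K14J26 and -0.29 without K14J28) and Itga6, an integrin gene 199 kb on the other side, by -0.16 (adjusted p = 0.140). Slc25a12, a mitochondrial carrier gene 149 kb away, was lower, at -0.38 with a standard error of 0.06 and an adjusted p of 0.0100. At the Dlx5/Dlx6 locus, Sem1 (242 kb away) and Sdhaf3 (73.9 kb away) were at -0.18 and -0.00034 on the log2 scale, and neither was called. Around Dlx3 and Dlx4, 12 neighbours were tested. The histone acetyltransferase gene Kat7 (-0.41, adjusted p = 0.00720) and Samd14 (-0.49, adjusted p = 0.0192) were lower, and the collagen gene Col1a1, 167 kb away, was higher, at 2.15 times the control level (adjusted p = 0.0406). Slc25a12 and Kat7 kept their calls in each of the 8 fits without 1 embryo, but lost them with a skeletal muscle covariate, at log2 fold changes of -0.41 and -0.40 (adjusted p = 0.0515 for each, in a fit that called 92 genes in all). Slc25a12 also lost its call with an enamel covariate, at -0.33 (adjusted p = 0.0821, edgeR). Samd14 lost its call without J3, J5, J7 or K14J29 (adjusted p from 0.0518 to 0.0646), and Col1a1 without J3, J5, J6, J7, K14J29 or K14J30 (0.0579 to 0.112). Both lost it with either covariate, with log2 fold changes of -0.18 and -0.038 beside the enamel score and -0.45 and 1.14 beside the muscle score. Col1a1 also lost it with robust dispersion (0.0557). Dlx4os, Pdk2 and Fam117a were higher without K14J28 (0.0206, 0.0206 and 0.00900) and Itga6 lower without K14J26 (0.0481) or with scaling by library size alone (0.0476). For Itga3, the nearest tested coding gene to Dlx3, the log2 fold change was -0.021 and the adjusted p 0.895 (edgeR).

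**Figure D4:**
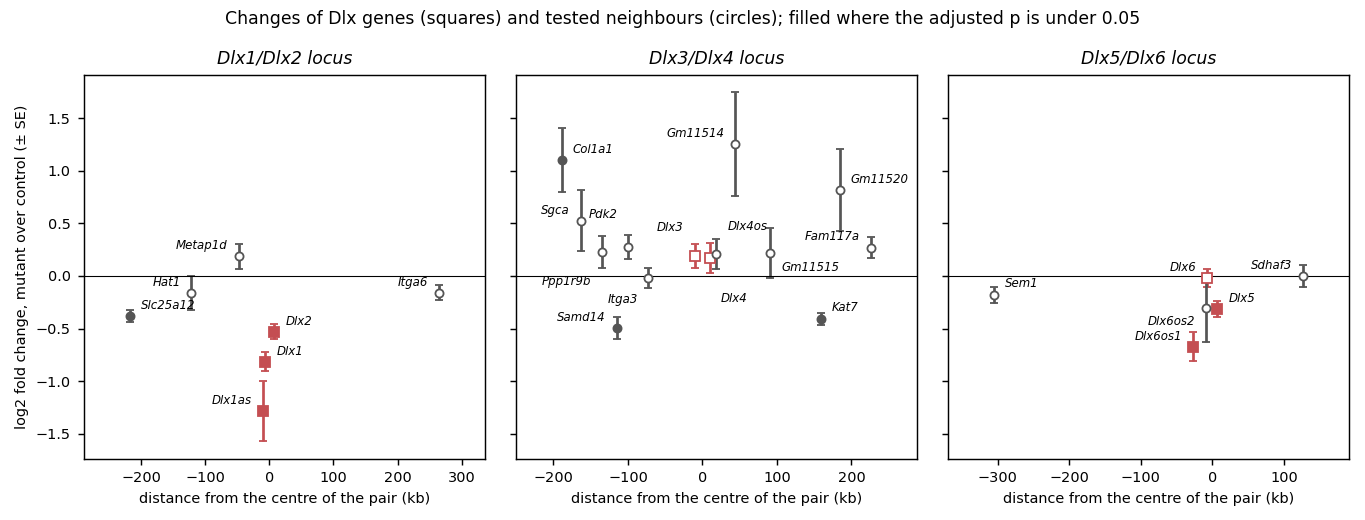
Log2 fold change ± standard error (y axis) of the members (squares) and of tested neighbours (circles) against the distance of the gene's middle from the centre of the pair in kb. Filled symbols have an adjusted p under 0.05, which holds for 3 members at Dlx1/Dlx2, 2 at Dlx5/Dlx6 and none at Dlx3/Dlx4.

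Other regulators that act with Dlx genes in the jaw and tooth were read from lists, whose counts stand beside 9.52% higher and 6.61% lower among all tested genes. Of 18 homeobox and related factors, 15 were tested, and 6 were lower, none higher and 9 not called, with a median log2 fold change of -0.16. Barx1, a molar field gene of the mesenchyme, fell from 69.5 ± 3.31 to 46.3 ± 6.97 CPM (SD, n = 4). Pax9, needed for teeth to pass the bud stage, fell from 27.2 ± 5.91 to 15.4 ± 2.45 CPM, and the mesenchymal gene Prrx2 from 25.9 ± 2.52 to 14.6 ± 3.41 CPM. Pitx1, a gene of the lower jaw, fell from 90.2 ± 1.89 to 74.6 ± 4.48 CPM. The adjusted p of these 4 lay between 0.0130 and 0.0211 (edgeR). Without 1 embryo, the call of Barx1 was lost when K14J29 was left out, those of Pax9 and Prrx2 without J3, J7 or K14J29, and that of Pitx1 without any control or K14J29 (adjusted p from 0.0509 to 0.0689). With the enamel covariate, Pax9 and Prrx2 were each at -0.35 on the log2 scale in place of -0.82, and Pitx1 at -0.273 in place of -0.274. None of them was called (adjusted p = 0.285, 0.272 and 0.124, edgeR). With the muscle covariate Barx1, Pax9, Prrx2 and Pitx1 were at -0.57, -0.74, -0.74 and -0.27, none called (0.0677 to 0.0942). With Xist, Pitx1 was at -0.276 and not called (adjusted p = 0.0527, edgeR). Hand1 had no count and Hand2, a target of Dlx5 and Dlx6 in the distal arch, at most 5 counts in any embryo.

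Among 12 genes of signals that lie upstream of Dlx genes in the arches, 11 were tested, of which 3 were lower, 1 higher and 7 not called (median log2 fold change -0.14). On the log2 scale, Smad1, a mediator of BMP signals, fell by 0.39 (adjusted p = 0.0149), Ednra, the endothelin receptor upstream of Dlx5 and Dlx6 in the lower jaw, by 0.48 (adjusted p = 0.0216), and Fgf9, a growth factor gene of the tooth, by 1.66 (adjusted p = 0.0282). Bmp2 rose from 26.2 ± 5.58 to 44.7 ± 9.93 CPM (SD, n = 4), with groups that overlapped (adjusted p = 0.0300, edgeR). These calls were lost without J7 or K14J29, those of Ednra, Fgf9 and Bmp2 also without J3, those of Fgf9 and Bmp2 without J5, and that of Bmp2 without K14J30 (adjusted p from 0.0509 to 0.0917). With the enamel covariate, the log2 fold changes were -0.23 for Smad1, -0.43 for Ednra, -0.45 for Fgf9 and 0.31 for Bmp2, none called (0.176 to 0.467). With the muscle covariate they were at -0.39, -0.39, -1.67 and 0.91, none called (0.0700 to 0.106), and with Xist Ednra was at -0.45 and Fgf9 at -1.96, not called (0.0653 and 0.0504). Fgf8 had at most 2 counts.

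Of 19 genes known as Dlx targets in teeth, bone, hair or brain, 16 were tested, of which 8 were higher, 1 lower and 7 not called (median log2 fold change 1.30). Odam, an ameloblast gene, was higher by 1.18 on the log2 scale (adjusted p = 0.00485), Enam, of the enamel matrix, by 5.61 (0.0244; 4.22 without K14J26) and Dspp, of the dentin matrix, by 2.31 (0.0247). Bglap, the osteocalcin gene, was higher by 2.56 (adjusted p = 0.0165, edgeR), and it has near-identical copies among which reads may be split. The calls of the last 3, not that of Odam, were lost without J3, J7 or K14J29, and those of Enam and Dspp without J5 (adjusted p from 0.0531 to 0.0749). They were also lost with the muscle covariate, at 2.54 for Bglap, 5.93 for Enam and 2.47 for Dspp (0.0936 to 0.143), and with the enamel covariate, whose score includes Enam and which left log2 fold changes of 0.58 for Bglap, 0.77 for Enam and 0.55 for Dspp. The list overlaps the ameloblast, odontoblast and osteoblast markers below, and the median over all tested genes was 0.0058. Of 4 partners of Dlx proteins, the MAGE family genes Ndn and Magel2 were lower, at -0.58 and -1.67 on the log2 scale (adjusted p = 0.0173 and 0.0311), the latter from only 0.831 ± 0.262 CPM. Both calls were lost without J7 or K14J29, and that of Magel2 without J3, J5, J6 or K14J30 (adjusted p from 0.0510 to 0.0933). With the enamel covariate they were at -0.24 and -0.43 on the log2 scale (0.247 and 0.660). With the muscle covariate they were at -0.50 and -1.47, neither called (0.0845 for Ndn), and with Xist Magel2 was at -2.10, not called (0.0513). Maged1, also of that family, had 746 ± 25.6 and 758 ± 83.9 CPM, and neither it nor Grip1 was called (adjusted p = 0.880 and 0.526, edgeR).

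Because Dlx genes are used in several tissues, markers of the cell types a molar could hold were measured beside them, against the same shares of all tested genes. Ameloblast markers were higher for 4 of 5 genes, with a summed level of 557 to 3254 CPM in the controls and 3503 to 114369 CPM in the mutants, and odontoblast markers for 3 of 4, with 708 to 1994.5 and 2347 to 7483 CPM. Of 5 osteoblast markers 2 were higher (995 to 1242 and 1204 to 1392 CPM), of 6 dental epithelium markers 1, Krt14, was higher (4657 to 5371 and 5486 to 8083 CPM), and of 6 dental mesenchyme markers 2, both collagen genes, were higher and 1, Twist1, was lower (8064 to 12336 and 11529 to 30331 CPM). The epithelial sum is mostly Krt5 and Krt14, and Epcam, also of that list, ran from 218 to 255 CPM in the controls and from 113 to 195 CPM in the mutants, without overlap and not called (log2 fold change -0.51, adjusted p = 0.0527, edgeR). Skeletal muscle markers were lower for 1 of 6 genes and ran from 4.60 to 305 CPM in the controls and from 5.24 to 16.3 CPM in the mutants. None of the 4 tested cartilage markers (72.7 to 87.3 and 62.9 to 72.7 CPM), 4 Schwann cell markers (59.2 to 73.7 and 61.8 to 71.9 CPM), 4 endothelial markers (225 to 260.2 and 185 to 234 CPM) or 4 macrophage markers (53.0 to 72.6 and 47.3 to 150.3 CPM) was called. The endothelial gene Cdh5 and the cartilage gene Sox9 were lower without overlap (log2 fold changes -0.31 and -0.20, adjusted p = 0.0642 and 0.0685, edgeR). Of all tested genes, 11.6% were lower without overlap. The other tested markers of these lists had groups that overlapped. Of 5 tested neuron markers 1, Tubb3, was higher (183 to 232 and 203 to 332 CPM). Gad2, which marks the forebrain interneurons where Dlx1, Dlx2, Dlx5 and Dlx6 are strongly expressed, had at most 1 count in any embryo. Gad1, also of the neuron list, had 0.856 ± 0.197 CPM in control and 2.30 ± 1.49 CPM in mutant molars (SD, n = 4). Its groups did not overlap, and it was not called (log2 fold change 1.42, adjusted p = 0.0516, edgeR).

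**Figure D5:**
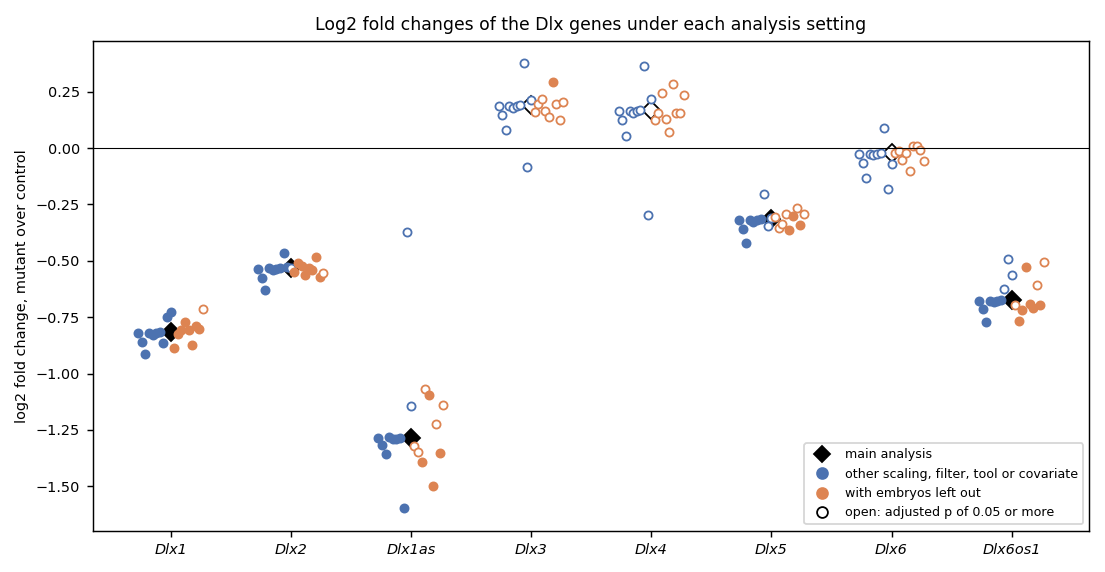
Log2 fold change (y axis) of each member in the main analysis (black diamond), with other scalings, filters, tools or covariates (blue) and with embryos left out (orange), open where the adjusted p was 0.05 or more. Dlx1, Dlx2, Dlx1as, Dlx5 and Dlx6os1 stay below 0 in each of these settings, while Dlx3, Dlx4 and Dlx6 cross it in some.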

How the data were processed

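Lower molars of 4 K14Cre;Jagged1fl/fl and 4 Jagged1fl/fl embryos at E18.5 were profiled by poly(A) RNA sequencing with a kit that does not mark the strand. The authors trimmed single-end reads with Trimmomatic, mapped them to GRCm38 with STAR and deposited the count of reads per Ensembl gene, not normalized, with 1 table per embryo. The methods of the paper name GenomicRanges for counting and the submitters' processing notes name featureCounts and GRCm38.p3; the handling of overlapping genes and of reads with several matches is not given in the sources used here.

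Symbols, positions and exon lengths came from GENCODE M21 (GRCm38), where 42548 of 43629 identifiers were found, and promoter sequences from RefSeq (GRCm38.p6). A gene was kept if 2 or more of the 4 embryos in either group had 10 or more counts, which left 17129. After TMM scaling, edgeR 4.0.16 (R 4.3.3) gave quasi-likelihood p-values with no covariate, adjusted by the Benjamini-Hochberg method. The standard error of a log2 fold change is its size over the square root of F. Within-embryo log2 ratios used counts plus 0.5 and exact two-sided permutation tests over 70 arrangements. The procedure was tested on simulated data. Counts of embryos of 1 group differed by more than sampling noise, with a chi-square per degree of freedom from 6.88 to 289. Totals ran from 17327224 to 29792467 counts, so that 3 counts correspond to at most 0.173 CPM, and 4 embryos per group limit the precision more than depth.

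Alternatives were scaling by library size, upper quartile or relative log expression, other filters, DESeq2 1.42.0, robust dispersion, 3 covariates, leaving out embryos, and another added count for the ratios. Named were the members, Jag1, tested genes within 200 kb or nearest on a side, up to 4 genes with the smallest p of each list, and the 2 most similar genes per coding member; other genes are background or tissue markers. The members and lists were chosen with earlier results of these data known. Embryo sex and litter are not in the labels. By the level of Xist, which was high in K14J28 and K14J29 and in no control, sex was not balanced between the groups. The Xist covariate thus stands for sex.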

Additional observations from a re-analysis of the deposited data

Results flagged for a closer look

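In groups of 4 embryos, a highest or lowest value was marked where its gap to the nearest embryo, divided by the group's range, was above Dixon's 95% critical value. Over 66 groups of the values given per embryo, 4 were marked, and chance marks about 1 in 20 groups. Dlx6os1 was low in mutant K14J29, at 42.1 CPM, with the other mutants between 50.5 and 51.5 CPM. The log2 count ratio of Dlx3 to Dlx4 was low in control J6, at 1.69, with the other controls between 1.86 and 1.87. Among the neighbours, Kat7 was high in control J7, at 170.2 CPM. Gm11520, an antisense gene near the detection limit, was high in mutant K14J29, at 0.693 CPM.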

How the results depend on the processing

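The falls of Dlx1, Dlx2, Dlx1as, Dlx5 and Dlx6os1 kept their direction in all 19 alternatives, and those of Dlx1 and Dlx2 kept their call in 18 and 17. Under the 3 other scalings and DESeq2, all 5 were called. With a covariate for the enamel gene score, which runs with genotype, the log2 fold changes were -0.37 for Dlx1as, -0.35 for Dlx5 and -0.49 for Dlx6os1, none called, and -0.085 for Dlx3 and -0.30 for Dlx4, both reversed. In this fit 298 genes were called in place of 2764, and 3 listed genes in place of 29. With the skeletal muscle score, the changes of Dlx1as (-1.14), Dlx2 (-0.53, adjusted p = 0.0505, edgeR), Dlx5 (-0.31) and Dlx6os1 (-0.56) were not called, with 92 calls in all and 1 among listed genes. With Xist, Dlx5 (-0.20) and Dlx6os1 (-0.63) were not called, and Dlx6 reversed to 0.090. Without J6 and J7 (2 against 4 embryos), 7 genes and 0 listed genes were called, with -0.71, -1.14, -0.55, -0.29 and -0.51 for Dlx1, Dlx1as, Dlx2, Dlx5 and Dlx6os1, and the Dlx3/Dlx4 log2 ratio difference was -0.024. The cause of these shifts was not tested, beyond the smaller number of embryos in the last. Leaving out 1 embryo gave 420 (without K14J29) to 4322 (without K14J28) called genes and 1 to 42 listed genes; among the members, log2 fold changes ran from -1.50 to -1.07 for Dlx1as, 0.12 to 0.29 for Dlx3, 0.071 (without K14J26) to 0.29 (without K14J28) for Dlx4, -0.36 to -0.27 for Dlx5, -0.10 to 0.011 for Dlx6, -0.77 to -0.53 for Dlx6os1, and the Dlx3/Dlx4 ratio difference from -0.023 to 0.063. By library size alone, 855 higher and 1060 lower genes were called, and 1363 and 1448 with upper-quartile scaling, against 1631 and 1133. Uncalled neighbours and partners changed sign: with the enamel score Hat1 (0.36), Metap1d (-0.15), Ppp1r9b (-0.29), Pdk2 (-0.076), Dlx4os (-0.16), Sdhaf3 (0.020), Grip1 (0.17) and Maged1 (-0.20), as did called Col1a1 (-0.038); with Xist Itga3 (0.12); with upper-quartile or library size scaling Maged1 (-0.022 and -0.086); and with 1 embryo left out Itga3 (-0.12 to 0.033), Sdhaf3 (-0.050 to 0.053) and Maged1 (-0.027 to 0.090). Dlx1as had the lowest counts of the members, 41 to 361, and its coefficient of variation was 28.6% in the controls and 36.3% in the mutants. The study's methods call the controls littermates, but litter is not in the labels, so no paired analysis was possible.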
